A study of Mus musculus with 21 samples.

Results

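The 84 genes described here encode the proteins of the cytosolic ribosome and were taken by symbol: Rpl or Rps followed by a number, with Rplp0, Rplp1, Rplp2, Rpsa and Fau added and rows named as pseudogenes (-ps) left out. They are 84 of the 14698 genes listed in any of 4 tables of expression values. Each table lists 83 of them and 82 are in every table, because Rpl24 stood in the ruxolitinib washout table alone and Rpl6l in the other 3. They divide into 35 genes of the small (40S) and 49 of the large (60S) subunit. GENCODE annotates 81 of the symbols as protein coding and 3 (Rpl6l, Rps3a2 and Rps3a3) as processed pseudogenes. Of the 84, 71 had a near copy (at least 90% identity over 80% of the coding bases) listed in a table. The row of such a gene can hold part of the reads of its family, and summed values are given for some genes only.

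mRNA was measured in 21 libraries of the mouse pro-B line Ba/F3, which normally depends on interleukin-3. In every group, controls included, the cells expressed the oncogenic kinase JAK2-V617F. Cells stayed for 6 h in 1 μM CHZ868 (CHZ_treated), 1 μM ruxolitinib (Ruxo_treated) or the solvent (DMSO_treated). In the washout experiments they had 1 h of inhibitor or DMSO, were washed in PBS and stayed 6 h without inhibitor (CHZ_wash with DMSO_wash_exp3, and Ruxo_wash with DMSO_wash), with 3 libraries in each of the 7 groups. Ruxolitinib is a type I JAK inhibitor, which binds the active form of the kinase, and CHZ868 is a type II inhibitor, which binds the inactive form. The study asked how gene expression differed during inhibition and after removal of each inhibitor. Of 11 pro-B cell markers examined only Cd79a and Cd79b were listed. The interleukin-3 receptor genes Il3ra, Csf2rb and Csf2rb2 were listed in every table, as was Ptprc, while Kit was listed in none. Some markers of other lineages were also listed in every table: Hba-a1 and Epor (erythroid) and Csf1r and Cd68 (macrophage). In DMSO_treated the mean log2 CPM was 8.41 for Hba-a1 and 4.12 for Cd79a. No T-cell or mast-cell marker examined was listed. The labels do not say whether replicates were separate cultures, so p-values measure the spread between these libraries, which may be technical.

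Ribosomal proteins are made in fixed proportions with ribosomal RNA, and their mRNAs are among the most abundant in a growing cell. Most of these mRNAs begin with a 5′ terminal oligopyrimidine (TOP) tract, a C followed by a run of pyrimidines, through which mTORC1 and LARP1 control their translation and stability. In blood cells the dose of these proteins matters: loss of one copy of RPS19, RPS26 or several others causes Diamond-Blackfan anemia, and RPL5 and RPL11 bind MDM2 when ribosome assembly is disturbed.

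The start of a transcript is where the TOP tract lies, so the starts of genes that carry the differences described here are shown. Each line gives 12 bases before the RefSeq transcript start in lower case and the first 12 transcribed bases in capitals, read 5′ to 3′ on the transcribed strand, with GRCm38.p6 positions. Rps6 (chr4:86857356-86857379, minus strand), Rps2 (chr17:24720051-24720074, plus) and Rps26 (chr10:128626495-128626518, minus) were the small-subunit genes with the largest rises in CHZ_treated. Rpl34 (chr3:130730387-130730410, minus), Rps19 (chr7:24884580-24884603, plus) and Rpl9 (chr5:65391420-65391443, minus) fell there, and Rpl22l1 (chr3:28805496-28805519, plus) had the largest rise in CHZ_wash.
Rps6: cggaagtcgggcCTCTTTTTCGTG
Rps2: cagtcgagatctCGCGCTTCTTGG
Rps26: gggcaagccgccGGATCCTCTTTC
Rpl34: cttccctgacgtACTTCCTGTCCG
Rps19: gaaatctcgcgaGACTCGACGCCC
Rpl9: cagggccctgacGGATTACAAGAA
Rpl22l1: cggcgcaagcccGTTCTCTTCCCA

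Rps6 and Rpl22l1, of which one rose and the other fell in CHZ_treated, both have an unbroken run of 10 pyrimidines (C or T) at the start. Rps26, which rose, has a run of 9. Rps19 has 3 annotated starts and Rpl34 has 2, and only the first of each is shown. The counts below take the longest run over all annotated starts of a gene. RefSeq promoter windows were at hand for 61 of the 84 genes. A run of at least 8 pyrimidines within 5 bases of the start was present in 25 of the 61 (40.98%), against 12.32% of 9500 listed genes. The ETS factor motif CCGGAAG, searched on both strands in the 250 bases before the start, was in 29.51% of the ribosomal protein genes and 16.68% of all. The STAT motif TTCNNNGAA was in 4.92% against 7.19%, the E-box CACGTG in 8.2% against 9.66% and the TATA box TATAAA in 6.56% against 7.64%. The tract was in 11 of the 22 genes with a promoter that rose in CHZ_treated in 7 of the 16 that fell and in 7 of the 22 that did not pass. Annotated starts can lie some bases from the start used in these cells, and these are matches of letters only.

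The values are on the log2 scale of CPM, the reads of a gene scaled to library size, and the libraries whose whole reads could be recovered held 7880220 to 10673060 reads on listed genes, of which 367434 to 578698 were on ribosomal protein genes. Ribosomal protein genes took 3.72% to 5.89% of the summed CPM in the 15 libraries of 3 tables and 16.9% to 17.5% in the 6 of the ruxolitinib washout table, so levels were not compared between tables. In each of 3 groups 1 library stood apart. The ribosomal share was 3.72% in Ruxo_treated replicate 2 against 4.83% and 5.02% in the other two replicates. It was 4.20% in DMSO_wash_exp3 replicate 3 against 5.14% and 5.72%, and 4.34% in CHZ_treated replicate 3 against 5.41% and 5.16%. The same 3 libraries had the highest share of mitochondrially encoded transcripts of their groups, at 3.53%, 5.33% and 6.37%. In CHZ_wash, replicate 1 had the lowest ribosomal share (5.05% against 5.89% and 5.79%) and the highest mitochondrial share (2.14% against 1.76% and 1.87%), by a smaller margin. The part of these libraries in the results was not tested. Values without them are given beside results that move by over 1.5 times, except in the direct comparison of CHZ868 with ruxolitinib.

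**Figure D1:**
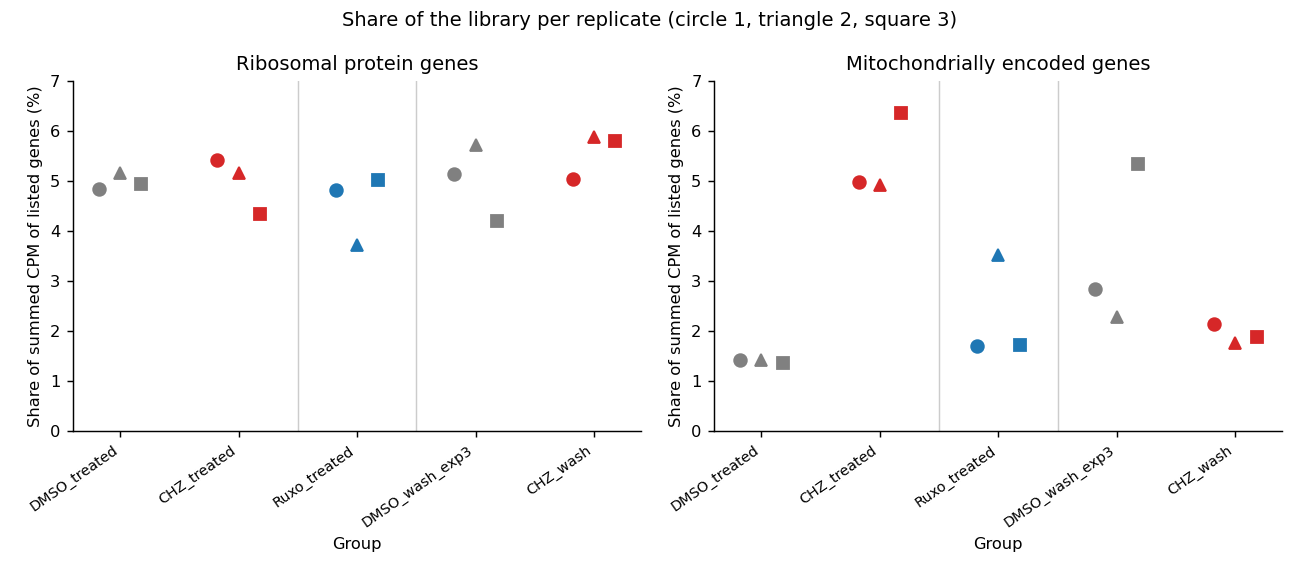
Share of the summed CPM of listed genes (%, y axis) on ribosomal protein genes (left) and on mitochondrially encoded genes (right) in the 5 groups of the 3 tables with recoverable reads (x axis); each point is 1 library and the marker shape gives its replicate. Ruxo_treated replicate 2, DMSO_wash_exp3 replicate 3 and CHZ_treated replicate 3 are lowest of their groups on the left, at 3.72%, 4.20% and 4.34%, and highest on the right, at 3.53%, 5.33% and 6.37%; CHZ_wash replicate 1 is lowest on the left (5.05%) and highest on the right (2.14%) of its group.

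The deviation of these libraries from the other replicates of their groups was shared across ribosomal protein genes. In Ruxo_treated replicate 2, 76 of 83 genes were below the mean of replicates 1 and 3, with a median deviation of -0.44 on the log2 scale. In DMSO_wash_exp3 replicate 3, 77 of 83 were below the mean of the other replicates, with a median of -0.37. In CHZ_treated replicate 3 these were 72 of 83 and -0.35, and in CHZ_wash replicate 1 they were 75 of 83 and -0.27. Across the 83 genes the deviations of Ruxo_treated replicate 2 and DMSO_wash_exp3 replicate 3, from separate groups and tables, correlated at r = 0.85 (rho = 0.77), against 0.68 over 11227 genes. The CHZ_treated difference described next correlated with them at r = 0.77 and r = 0.75, against 0.48 and 0.44 over all genes. These are correlations across genes, which are not independent, and the points share gene length and base composition.

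After 6 h of CHZ868 the ribosomal protein genes did not move in one direction. Of 83 genes, 27 rose and 22 fell (limma, adjusted p under 0.05), and 34 did not pass. That is 59% of them, where 53.2% of all 11670 genes passed (26.8% higher and 26.4% lower). The median difference was 0.11 on the log2 scale against -0.01 over all genes, and the spread was like that of all genes (SD 0.59 against 0.64). At an unadjusted p under 0.05, 55 genes passed, where 58.4% of all genes did. Treated and control libraries were fully separate for 42 (59.7% of all), of which 20 lay higher (29.6%) and 22 lower (30.1%). The direction of the whole set depended on scaling: quantile normalization gave 16 higher and 35 lower with a median of -0.10 (0.02 over all genes, of which 52.4% passed). Leaving out CHZ_treated replicate 3 gave 48 higher and 23 lower with a median of 0.20, where 27.9% of all genes were higher and 27.2% lower. In bulk RNA, fewer cells and less RNA per cell cannot be told apart.

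**Figure D2:**
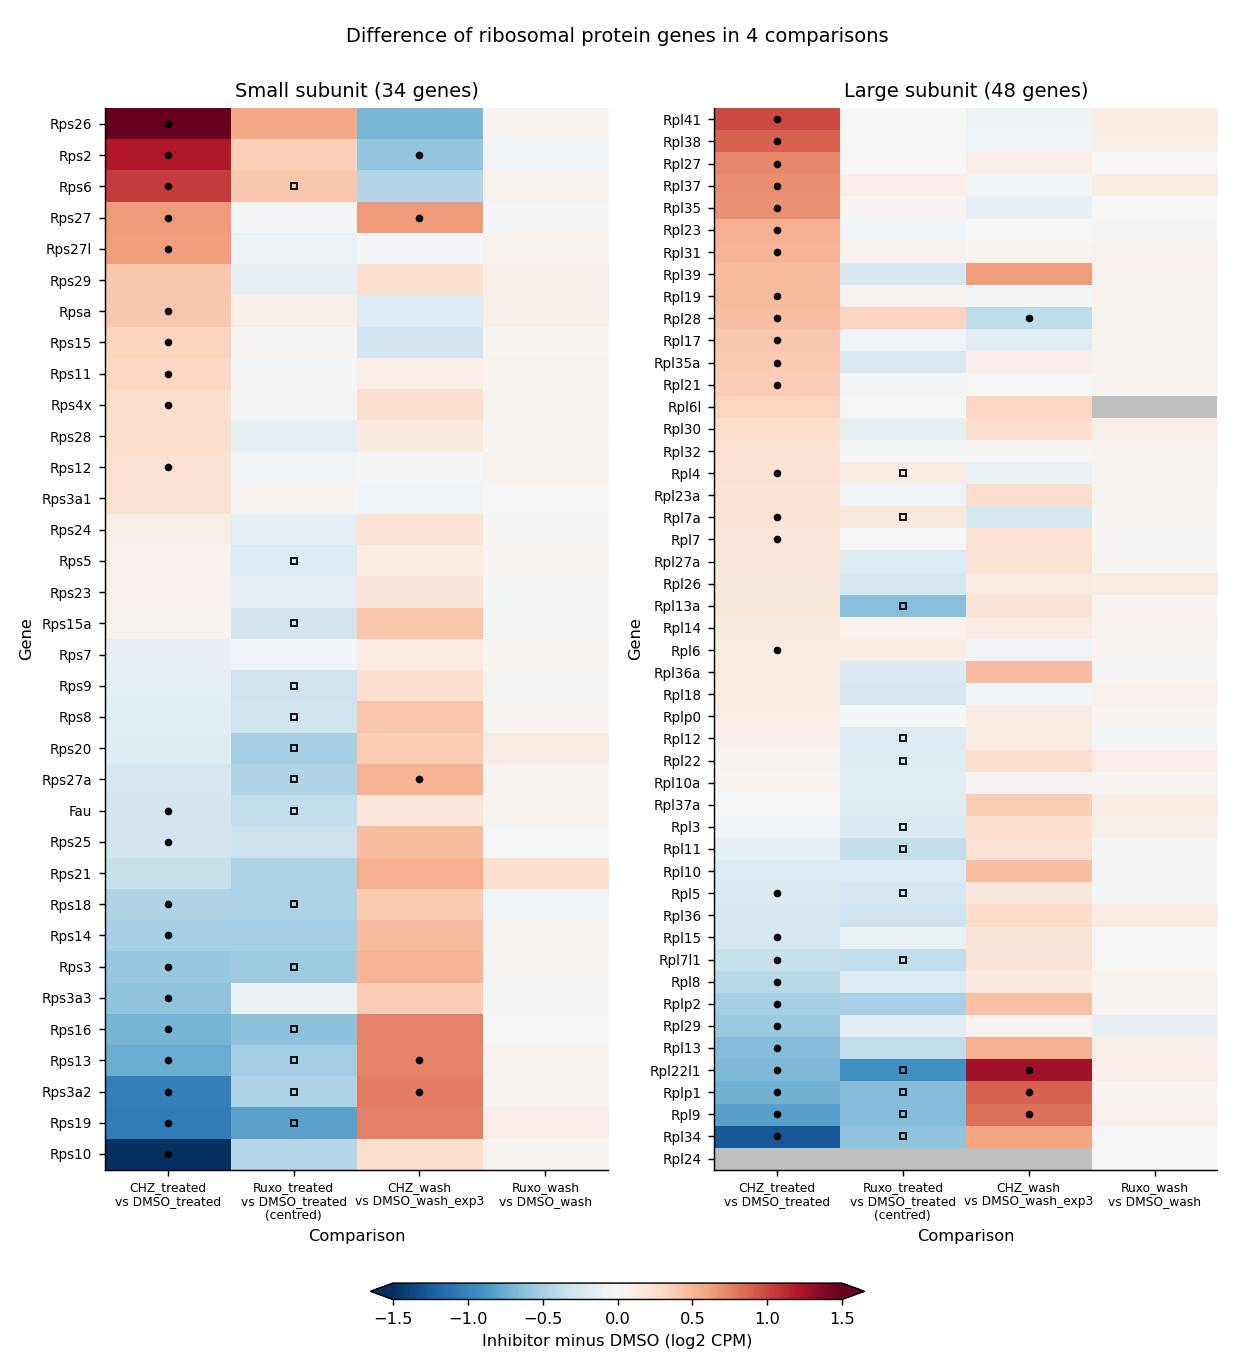
Difference between inhibitor and DMSO (colour, log2 CPM, limited to 1.5 either way) for 82 ribosomal protein genes (rows, ordered by the CHZ_treated difference) in 4 comparisons (columns); dots mark an adjusted p under 0.05, open squares mark groups that did not overlap in the untested Ruxo_treated comparison, and grey marks a gene not listed. The CHZ_treated column runs from 2.30 (Rps26) to -2.00 (Rps10), while the Ruxo_wash column stays between -0.12 and 0.25.

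The largest rise was in Rps26, a small-subunit protein near the mRNA exit channel and a Diamond-Blackfan anemia gene. Its log2 CPM was 8.28, 8.39 and 8.25 in DMSO_treated and 11.20, 10.70 and 9.92 in CHZ_treated. It rose 4.93-fold (log2 difference 2.30, SE 0.20, limma adjusted p = 1.96e-07). All 3 treated libraries lay above all controls, but they spread over 7786 to 23685 reads, and replicate 3 was the lowest. Without it the difference was 2.64. The row of the near copy Rps26-ps1 held part of the reads (Rps26 itself 76.4% of the sum in DMSO_treated), and with the copy summed the difference was 2.26.

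Rps6, the small-subunit protein phosphorylated by S6 kinase downstream of mTORC1, rose 2.06-fold. Its log2 CPM was 9.78, 9.80 and 9.83 in DMSO_treated and 10.89, 10.83 and 10.82 in CHZ_treated (difference 1.05, SE 0.05, limma adjusted p = 6.27e-10). The groups were far apart and the replicates close. Near copies of Rps6 (Rps6-ps4 at 100% identity, Rps6-ps1 and Gm11263) were also listed for these libraries. Its value is that of its own row, and a summed value is not given. Rps2, at the mRNA entry channel, went from 8.11, 8.27 and 8.21 to 9.42, 9.36 and 9.41 (difference 1.20, SE 0.06, limma adjusted p = 3.14e-10). Here the name matters: Rps2 held 31.9% of the CPM summed with its 3 listed near copies, and the summed difference was 0.25 (limma adjusted p = 0.0013). Rpl41, a very short large-subunit protein, rose by 0.99 (SE 0.15), from 7.47, 7.89 and 7.73 to 9.06, 8.77 and 8.23, and no near copy of it was listed.

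The largest fall by value was in Rps10, but its row held 60, 64 and 38 reads in DMSO_treated and 6, 11 and 16 in CHZ_treated. The difference of -2.00 (SE 0.41, limma adjusted p = 8.44e-04) turned to 0.98 when the copies Rps10-ps1 and Rps10-ps2 were summed with it, so no direction is given for this gene. Rps3a2, one of the annotated pseudogenes, was at -1.02 alone and at -0.18 (limma adjusted p = 0.057) summed with Rps3a1 and Rps3a3.

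Rpl34, a large-subunit protein, held 97.0% of the CPM summed with its copy Rpl34-ps1. Its log2 CPM was 7.86, 8.05 and 7.93 in DMSO_treated and 6.61, 6.71 and 6.72 in CHZ_treated. It was 2.41-fold lower (difference -1.27, SE 0.07, limma adjusted p = 1.16e-09). Rps19, the gene most often mutated in Diamond-Blackfan anemia, had 8.32, 8.54 and 8.38 in DMSO_treated and 7.57, 7.57 and 6.95 in CHZ_treated, with no near copy listed. It was 2.07-fold lower (difference -1.05, SE 0.13, limma adjusted p = 5.51e-06), with the lowest value in replicate 3. Rpl9 fell by 0.82 on the log2 scale (SE 0.06) with control values of 9.46, 9.45 and 9.46 and treated values of 8.73, 8.70 and 8.49. Its near copies Rpl9-ps4, Rpl9-ps6 and Rpl9-ps7 were also listed, and a summed value is not given. For Rpl34, Rps19 and Rpl9 the treated and control groups did not overlap.

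**Figure D3:**
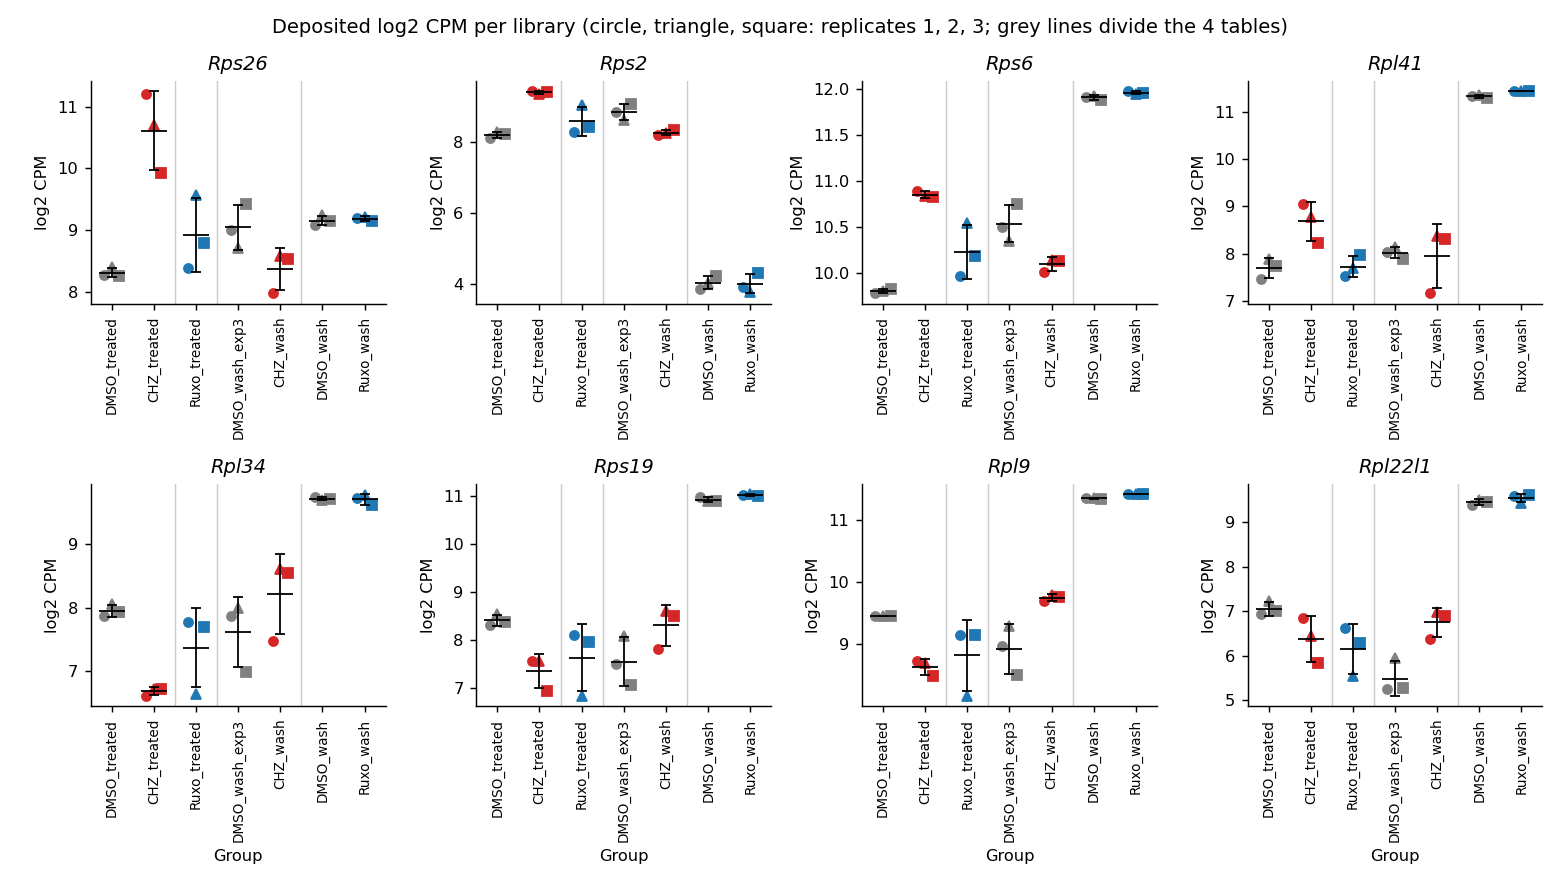
Deposited log2 CPM (y axis) of 8 ribosomal protein genes in the 7 groups (x axis); each point is 1 library, marker shape gives the replicate, the horizontal line is the mean and the bar the SD of 3 libraries, and vertical grey lines separate the tables, between which levels are not comparable. Rps26, Rps2, Rps6 and Rpl41 are high and Rpl34, Rps19, Rpl9 and Rpl22l1 low in CHZ_treated, while the mean of CHZ_wash lies on the other side of its own control in every panel, with overlapping libraries for Rpl41, Rpl34 and Rps19.

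By role, the 8 proteins around the exit of the peptide tunnel (Rpl17, Rpl19, Rpl22, Rpl23a, Rpl26, Rpl31, Rpl35, Rpl39) all had positive differences in CHZ_treated, with 4 past the threshold, a median of 0.44 and none lower. Over all genes 26.8% rose past the threshold. Rpl35 rose by 0.69 (SE 0.10), from 7.98, 8.07 and 8.06 to 8.99, 8.76 and 8.43. Rpl31 rose by 0.52 (SE 0.09) and Rpl19 by 0.47 (SE 0.11). Rpl26 held 11.9% of the CPM summed with its near copy, so its own value of 0.17 rests on a small part of the reads. Without CHZ_treated replicate 3 Rpl22 (0.17), Rpl23a (0.35), Rpl26 (0.36) and Rpl39 (0.77) also passed.

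The stalk proteins, which recruit elongation factors to the large subunit, divided. Rplp1 and Rplp2, the acidic dimer, fell by 0.71 (SE 0.13, limma adjusted p = 3.95e-04) and by 0.52 (SE 0.15, limma adjusted p = 0.0078), while their anchor Rplp0 was at 0.10 (limma adjusted p = 0.22). Rplp2 was at 7.97, 8.29 and 8.11 in DMSO_treated and 7.70, 7.97 and 7.14 in CHZ_treated, so its groups overlapped at their edges. Without CHZ_treated replicate 3, its lowest library, Rplp2 was at -0.28, while Rplp0 was at 0.17 and passed. Near copies of each stalk gene were also listed, and summed values are not given. Among genes linked to anemia, Rps26 and Rpl35a (0.39) rose, Rps19 and Rps14 (-0.50) fell, and Rps24 (0.09) did not pass. Without CHZ_treated replicate 3 Rpl35a was at 0.64, and Rps24 was at 0.21 and passed. Rps14 is linked to the anemia of the 5q- syndrome and the others to Diamond-Blackfan anemia.

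In the 5S particle that binds MDM2, Rpl5 fell by 0.22 (SE 0.05, limma adjusted p = 0.0035) and Rpl11 was at -0.15 (limma adjusted p = 0.27), or at 0.03 without CHZ_treated replicate 3. Rpl23, another MDM2-binding protein, rose by 0.53 (SE 0.12). At the decoding site and mRNA entry, Rps3 fell by 0.57 (SE 0.08) and Rps23 was at 0.06, or at 0.28 and past the threshold without CHZ_treated replicate 3. The fusion genes, whose products are cut from a ubiquitin or ubiquitin-like part, were at -0.28 (Fau, limma adjusted p = 0.0019) and -0.25 (Rps27a, limma adjusted p = 0.094), the latter at -0.05 without that replicate.

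Paralogs of one protein were not always alike. Rpl22l1, a paralog that can take the place of Rpl22, fell by 0.67 (SE 0.17) in CHZ_treated while Rpl22 was at 0.04 (SE 0.09). Without CHZ_treated replicate 3 they were at -0.40 and 0.17. Rpl7l1, a nucleolar relative of Rpl7, fell by 0.33 (SE 0.08), and Rpl7 rose by 0.18 (SE 0.07), a value that was -0.03 after quantile normalization. Rps27 and Rps27l, a p53 target, rose by 0.63 each, with SE 0.24 and 0.15, and Rps27 was at 1.04 without CHZ_treated replicate 3. Rpl3 (-0.05), Rpl10 (-0.20) and Rpl39 (0.47) did not pass, and without that replicate the first of these were at 0.06 and -0.07. Rps4x rose by 0.27 (but was at -0.26 after quantile normalization), and Rpl3l, Rpl10l, Rpl39l and Rps4l were not analysed here.

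Other genes of the pathway were counted from lists drawn up by function. Over all genes 26.8% rose and 26.4% fell in CHZ_treated. Of 17 other TOP mRNAs 10 rose and 4 fell in CHZ_treated (median 0.24), led by Pabpc1 (0.82), which coats the poly(A) tail, and Eif3h (0.74), while Eef1g fell by 0.38. Of 30 ribosome assembly factors 6 rose and 16 fell (median -0.25), with Rrp9 at -1.39 and Rrp12 at -1.18, both of pre-rRNA processing, and Rpf2, which carries the 5S particle, at 0.68. RNA polymerase I genes had 1 rise and 6 falls of 13, with the second-largest subunit Polr1b at -1.50. Regulators of TOP mRNAs had 1 rise and 6 falls of 13, with Larp1 at -0.90 and Eif4e, the cap-binding factor, at 0.57. Of 9 p53 response genes 4 rose and 2 fell. Mitochondrially encoded genes moved furthest beside these: 16 of 17 rose, with a median of 2.36.

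In ruxolitinib at the same dose and time, 65 of 83 ribosomal protein genes lay on the low side, as did 5317 of all 11624 genes. Ruxo_treated and DMSO_treated libraries are in separate tables, so values were centred on the median of 11624 common genes in each library and no test was made. There was no overlap between groups for 29 of 83 genes, of which 4 were higher and 25 lower (44.6% of all genes, with 24.6% higher and 20.1% lower). The median difference was -0.17 against 0.04 over all genes. Without Ruxo_treated replicate 2, 47 of 83 lay on the low side, the median was -0.03 against 0.03, and the counts without overlap were 9 higher and 25 lower against 31.6% and 25.7% of all genes. Mitochondrially encoded genes were higher and apart in 6 of 14 cases, with a median of 0.57, and in replicate 2 they lay at a median of 1.24 above the other replicates.

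Rpl22l1 had the largest difference on the low side, with centred values of 1.69, 1.97 and 1.75 in DMSO_treated and 1.36, 0.29 and 1.00 in Ruxo_treated (difference -0.92, and -0.62 without replicate 2). Rps19 had 3.07, 3.29 and 3.14 in DMSO_treated and 2.84, 1.59 and 2.66 in Ruxo_treated (difference -0.80, and -0.41 without replicate 2). In both genes the groups were apart and replicate 2 was by far the lowest. Rpl9 was at -0.66 (-0.34 without replicate 2), Rplp1 at -0.65 (-0.30 without it) and Rpl13a, a protein that is also released from the ribosome in interferon-γ signalling, at -0.64. Rpl13a had 125 to 129 reads in the Ruxo_treated libraries and 159 to 209 in DMSO_treated. Its near copy Gm11478 (98.0% identity) was also listed for both groups. The few reads of this row may be part of those of the family, and a summed value is not given.

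The genes on the high side included Rps6 (0.40), Rpl7a (0.15) and Rpl4 (0.11), and Rpl4 was at -0.10 after quantile normalization. Without replicate 2 Rps6 was at 0.24. Rps6 had centred values of 4.53, 4.55 and 4.58 in DMSO_treated and 4.69, 5.29 and 4.89 in Ruxo_treated. Rps26 was at 0.58 with overlapping groups, since replicate 1 (3.11) lay below the highest control (3.14), and at 0.25 without replicate 2. Ribosome assembly factors were lower and apart in 20 of 30 cases and higher and apart in none, against 20.1% and 24.6% of all genes. Gnl3 was at -1.28 and Dkc1, the pseudouridine synthase of box H/ACA particles, at -1.26. Polr1b was at -1.14 and Larp1 at -0.76.

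CHZ868 and ruxolitinib share their DMSO controls, so their own values are set side by side. Rps26 differed from DMSO by 2.30 in CHZ868 and 0.58 in ruxolitinib, Rps2 by 1.20 and 0.36, and Rps6 by 1.05 and 0.40. Without Ruxo_treated replicate 2 the ruxolitinib values were 0.25 for Rps26, 0.12 for Rps2 and 0.24 for Rps6. Summed with its near copies, Rps2 was at 0.25 and -0.04. Rpl34 was at -1.27 and -0.60, Rps19 at -1.05 and -0.80, Rpl9 at -0.82 and -0.66, and Rpl22l1 at -0.67 and -0.92. Without that replicate Rpl34 was at -0.25 in ruxolitinib, and without CHZ_treated replicate 3 Rpl22l1 was at -0.40 in CHZ868. Compared directly on the centred scale at 1 μM and 6 h, 20 of 83 genes were higher in CHZ868 and 2 lower with no overlap of the libraries (26.5%, against 35.3% of all genes). Over all 11624 genes 1947 were higher and 2160 lower. The median was 0.24 higher in CHZ868 against -0.01 over all genes. Rps26 was 1.75 and Rpl41 1.02 higher in CHZ868. The 2 lower genes were Rps10 and Rps3a3, both with near copies. These counts and the median include Ruxo_treated replicate 2, in which 76 of 83 genes lay below the mean of replicates 1 and 3. Values without it are not given for this direct comparison, so the lean toward CHZ868 may rest in part on that library, which was not tested.

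**Figure D4:**
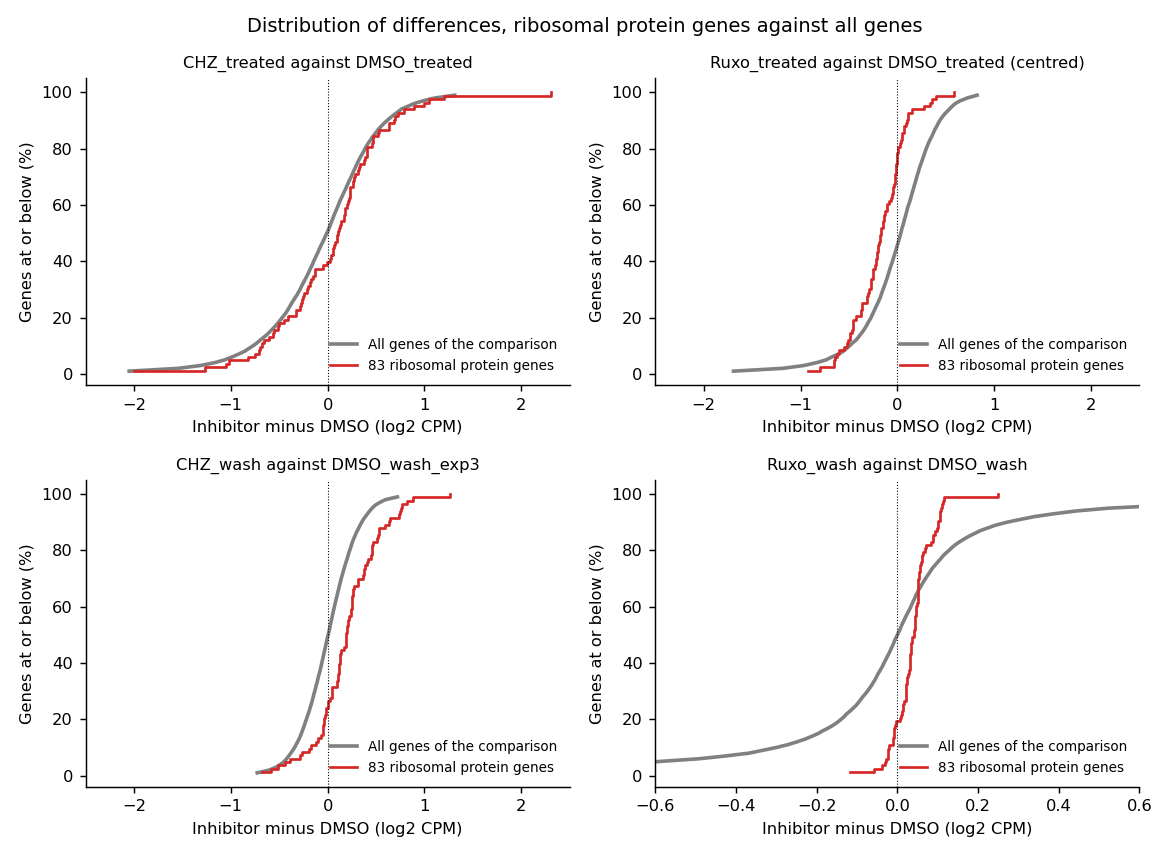
Share of genes at or below a given difference (y axis, %) against the difference between inhibitor and DMSO (x axis, log2 CPM) for the 83 ribosomal protein genes (red) and all genes (grey, percentiles 1 to 99) in 4 comparisons; the x axis of the Ruxo_wash panel is narrower. The medians are 0.11, -0.17, 0.19 and 0.04 for ribosomal protein genes against -0.01, 0.04, 0.01 and 0.00 for all genes.

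After wash-out of CHZ868 the ribosomal protein genes were mostly on the high side. Of 83 genes 63 had positive differences (5765 of all 11355), with a median of 0.19 against 0.01 over all genes. By the limma test 7 rose and 3 fell, 12% of them, where 4.02% of 11355 genes passed (1.96% higher and 2.07% lower). At an unadjusted p under 0.05, 29 genes passed (24.4% of all), and 24 genes had libraries that did not overlap (31% of all), 17 higher (14.9%) and 7 lower (16.1%). These calls depended on single libraries: 0 genes passed without CHZ_wash replicate 1, 2 or 3 or without DMSO_wash_exp3 replicate 1, while 25 passed without DMSO_wash_exp3 replicate 2 (20 higher and 5 lower, where 11.4% of all genes passed) and 18 without replicate 3 (12.6% of all). Without CHZ_wash replicate 1, 0% of all 11355 genes passed, so the loss of calls there was not particular to ribosomal protein genes. Their median was then 0.30, against 0.01 over all genes. Before adjustment 45 of them had p under 0.05 by limma, but the share of all genes in that fit is not given, so nothing is read from this count. Without DMSO_wash_exp3 replicate 3, in which ribosomal protein genes were low, 49 of 83 differences were positive. The median was then 0.05 (against 0.00 over all genes) and 11 rose and 7 fell, where 6.68% of all genes rose and 5.87% fell.

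Rpl22l1 rose most, with log2 CPM of 5.25, 5.94 and 5.28 in DMSO_wash_exp3 and 6.38, 6.99 and 6.88 in CHZ_wash. It was 2.40-fold higher (difference 1.26, SE 0.20, limma adjusted p = 0.025), and 1.15 without DMSO_wash_exp3 replicate 3. The groups were apart in every library. Rplp1 rose by 0.88 (SE 0.20), from 8.22, 8.77 and 7.76 to 9.02, 9.24 and 9.12. Rpl9 rose by 0.82 (SE 0.16), from 8.98, 9.30 and 8.51 to 9.69, 9.80 and 9.76. In both, DMSO_wash_exp3 replicate 3 was the lowest library, and the difference without it was 0.64 for Rplp1 and 0.61 for Rpl9.

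Rps13 (0.74), Rps27 (0.64), Rps27a (0.52) and the pseudogene row Rps3a2 (0.77) also rose, and Rps3a2 summed with its copies was at 0.19 and did not pass. The falls included Rps2 (-0.59, SE 0.11) and Rpl28 (-0.38, SE 0.09). Rpl28 had 9.48, 9.57 and 9.57 in DMSO_wash_exp3 and 8.99, 9.22 and 9.24 in CHZ_wash. Rps2 summed with its copies was at -0.25 and did not pass. Rps26 was at -0.68 (limma adjusted p = 0.065) and Rps6 at -0.44 (limma adjusted p = 0.054), and Rps19 at 0.76 (limma adjusted p = 0.094). Mitochondrially encoded genes were on the low side in all 15 cases, with a median of -0.93 and 4 past the threshold, where 2.07% of all genes fell.

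**Figure D5:**
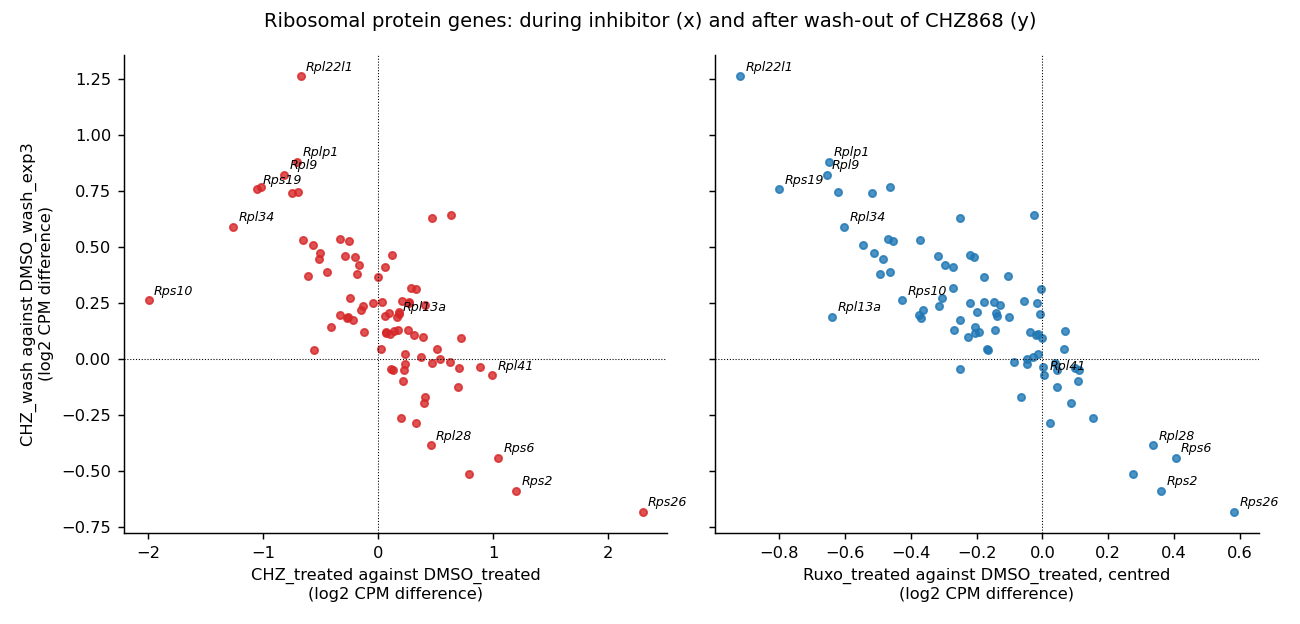
Log2 CPM difference of each ribosomal protein gene after wash-out of CHZ868 (y axis) against its difference in CHZ_treated (left, x axis) and in Ruxo_treated, centred (right, x axis); each point is 1 of 83 genes. The points run from upper left to lower right in both panels, with Pearson's r of -0.72 and -0.86.

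Across 83 genes the CHZ_treated and CHZ_wash differences, which share no library, correlated at r = -0.72 (rho = -0.71), and 53 genes had opposite signs. Over all 11175 genes r was -0.44 and 7215 had opposite signs, a share like that of the ribosomal protein genes. Ruxo_treated and CHZ_wash, again with no library in common, gave r = -0.86 (rho = -0.81) with 77 opposite signs, against -0.34 and 7152 of 11160 over all genes. Without DMSO_wash_exp3 replicate 3 these were -0.59 with 55 opposite signs and -0.79 with 65. Without Ruxo_treated replicate 2 the second was -0.68 with 59. These libraries, whose deviations were alike, were not left out together. CHZ_treated replicate 3 and CHZ_wash replicate 1 were not left out of the correlations. The correlations describe genes, not samples, and points share read depth and length. Fitted together, the CHZ_treated and CHZ_wash effects differed for 39 of 83 genes, 16 in the higher and 23 in the lower direction, where 47.1% of all genes differed (23.2% higher and 23.8% lower). Before adjustment 43 had p under 0.05 (53.8% of all).

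After wash-out of ruxolitinib the ribosomal protein genes were nearly level with DMSO. None of 83 passed the limma test, where 3 of 13085 genes did (0.0229%). Before adjustment 19 genes had p under 0.05, 22.9% of them against 7.03% of all. None passed either without the mean-variance trend, with vooma weights or with robust empirical Bayes, where 1, 22 and 22 genes had an unadjusted p under 0.05. The shares of all genes in those fits are not given, so nothing is read from these counts. The differences ran from -0.12 to 0.25 with a median of 0.04, and 67 of 83 were positive (6547 of all 13085). In 23 genes the libraries did not overlap, and all 23 were higher, where 12.9% of all genes did not overlap (6.3% higher and 6.59% lower). This small shift depended on scaling, since the median was -0.01 after quantile normalization and 0.03 after a correction for transcript length. With quantile normalization 6 genes had an unadjusted p under 0.05, again without the share of all genes.

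Rpl9 shows the size of these differences, with 11.41, 11.41 and 11.42 in Ruxo_wash and 11.35, 11.34 and 11.34 in DMSO_wash (difference 0.07, SE 0.01, limma adjusted p = 0.33). Rpl41 was at 0.11 (SE 0.02, limma adjusted p = 0.29), Rps19 at 0.10, Rps6 at 0.05 and Rpl5 at -0.02. Rps21, chosen after its value was seen as the highest, was at 0.25 (SE 0.08, limma adjusted p = 0.59). Rpl24, listed in this table alone, was at -0.01 (SE 0.02). Among genes near the family, Rpl36al was at -0.05 and the ribosome-bound scaffold Rack1 at 0.03. The row Rps2 held 0.359% of its summed CPM here, with most on its copies, and Rps10 held 99.9%, so the same symbol stood for different parts of a family in different tables.

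The study also set the 2 washout effects against each other. The difference between the Ruxo_wash and CHZ_wash effects passed for 2 of 82 genes (1.9% of all, 0.972% higher and 0.923% lower). These were Rpl28 at 0.43 (SE 0.10, limma adjusted p = 0.046) and Rpl22l1 at -1.16 (SE 0.24, limma adjusted p = 0.037), and 20 genes had an unadjusted p under 0.05 (18.9% of all). Rpl22l1 was at 0.10 in Ruxo_wash and 1.26 in CHZ_wash, and Rpl28 at 0.05 and -0.38. Leaving out 1 library at a time gave 0 to 17 genes, with 17 without DMSO_wash_exp3 replicate 2 and 10 without its replicate 3. The share of all genes that passed in those fits is not given, so these counts are not read as particular to ribosomal protein genes. The washout experiments are in separate tables, so experiment and inhibitor cannot be told apart in this comparison.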

How the data were processed

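mRNA of 21 libraries (7 groups of 3) was analysed from 4 tables of log2 CPM (counts scaled to library size) deposited by the authors. According to the methods the authors pseudo-aligned reads with kallisto to GRCm38, computed CPM with edgeR, removed low genes and applied TMM, while the submitters' processing notes name STAR 2.7.3a, GRCm39 and edgeR 4.0.16 (not reconciled here). The library kit was strand-specific. Every column matched a library by its label. The members and the gene lists were chosen with earlier results of these data known.

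The deposited log2 values were fitted by limma 3.58.1 with a mean-variance trend in R 4.3.3, using only the libraries of each comparison (both experiments for differences between effects), with Benjamini-Hochberg adjustment over all genes. Ruxo_treated was centred and not tested. Genes named were those of the role lists and up to 5 largest called differences each way with groups apart; of other lists, up to 2 each way. Whole reads were recovered from low values of 3 tables (100% of values under 200 reads lay within 0.05 of a whole read); the depth of the ruxolitinib washout table is unknown. Near copies shared at least 90% identity over 80% of the coding bases (blastn 2.17.0, GENCODE). Promoters came from RefSeq GRCm38.p6. Replicate numbers gave same-number correlations from -0.07 to 0.05, so they did not pair libraries. Alternatives were other limma settings (no trend, vooma weights, robust), scalings, low-expression filters, added constants, a stricter threshold, a transcript length correction, a replicate block and leaving out each library. Some genes are not reported here by name, though counts and medians include them. The fits were tested on simulated data.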

Additional observations from a re-analysis of the deposited data

Results flagged for a closer look

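Genes named in the report were looked at again where the effect of CHZ868 in the treated cells differed from its effect after wash-out by the test of the difference itself (limma over all 12 libraries of both experiments, adjusted p under 0.05). Of 43 named genes 12 differed in the higher and 15 in the lower direction. Genes were named partly for the size of their difference in this same comparison, so nothing is read from these counts. The values are the log2 difference in CHZ_treated minus that in CHZ_wash. In the higher direction these were Rps26 (2.98), Rps2 (1.79), Rps6 (1.49), Rpl41 (1.07), Rpl28 (0.84), Rpl35 (0.81), Rps27l (0.64), Rpl17 (0.57), Rpl19 (0.49), Rpl31 (0.47), Rpl7a (0.46) and Rpl4 (0.32). In the lower direction they were Rps10 (-2.26), Rpl22l1 (-1.94), Rpl34 (-1.86), Rps19 (-1.81), Rps3a2 (-1.79), Rpl9 (-1.64), Rplp1 (-1.59), Rps13 (-1.49), Rps3 (-1.08), Rps14 (-0.98), Rplp2 (-0.96), Rps27a (-0.78), Rpl10 (-0.66), Rpl7l1 (-0.53) and Rpl5 (-0.39). Rps10 turned to 0.98 with its near copies summed, and Rpl4 was at -0.51 after quantile normalization. The values of Rps2 and Rps3a2 are also those of single rows that hold part of a family. Summed with near copies, both had much smaller differences in CHZ_treated and in CHZ_wash, as given above. Their large values here are therefore not read as effects on the genes.

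Between the washout experiments 2 named genes differed, Rpl22l1 (-1.16) and Rpl28 (0.43), as Ruxo_wash effect minus CHZ_wash effect. The experiments also differ in their own DMSO groups and tables. DMSO_wash_exp3 replicate 3, whose mitochondrial share of CPM was 5.33%, enters both tests, and its part in these differences was not tested.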

How the results depend on the processing

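Of 5621 alternative values for single named genes 5292 kept their direction and their side of the threshold, 196 lost and 121 gained a call, and 12 changed sign. In CHZ_treated, quantile normalization turned Rpl4 to -0.44, Rpl7 to -0.027, Rpl7a to -0.023, Rplp0 to -0.64 and Rps4x to -0.26, and the median of the ribosomal protein genes to -0.10. For Ruxo_treated it turned Rpl4 to -0.10, and for the CHZ_treated effect against the CHZ_wash effect Rpl4 to -0.51 and Rps4x to -0.68. Summing near copies, chosen after seeing the data, turned Rps10 to 0.98 in both CHZ868 comparisons. For Ruxo_treated, leaving out 1 library gave Rplp0 from -0.086 (without replicate 3) to 0.12 (without replicate 2) and Rps4x from -0.069 (without replicate 1) to 0.060 (without replicate 2). The cause was not tested. In CHZ_wash 0 ribosomal protein genes passed without the mean-variance trend (23 at an unadjusted p under 0.05) and 0 at an adjusted p under 0.01, and leaving out 1 library gave 0 to 25. For Ruxo_wash the median was -0.0060 after quantile normalization and 0.025 with the transcript length correction. The Ruxo_wash effect against the CHZ_wash effect passed for 0 genes without the trend and at 0.01, for 1 with vooma weights, with near copies summed, with the replicate block and with the block and length correction, and for 0 to 17 without 1 library. With the replicate block 55 genes passed in CHZ_treated, 13 in CHZ_wash, 0 in Ruxo_wash and 43 for the CHZ_treated effect against the CHZ_wash effect; the replicate numbers did not pair libraries. Leaving out 1 library, CHZ_treated gave 42 to 71 genes. Shares of all genes are not given beside the counts in this section, so nothing particular to ribosomal protein genes is read from them. Depth limits Rps10 and Rpl13a, with few reads each, and cannot be judged for the ruxolitinib washout table.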

Other observations

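The proteins of the mitochondrial ribosome are also encoded in the nucleus. In CHZ_treated, of their 76 listed genes 25 rose and 13 fell, where 26.8% of all genes rose and 26.4% fell. Their median was 0.07 against -0.01 over all genes. Mrps15 (1.29, SE 0.09) and Mrpl41 (1.11, SE 0.18) rose most, and Mrpl57 (-1.10, SE 0.22) and Mrps18a (-0.85, SE 0.20) fell most. In Ruxo_treated, without a test, 10 were higher and 14 lower with groups apart (24.6% and 20.1% of all genes), with Mrps15 at 0.43 and Mrpl57 at -0.69. In CHZ_wash 2 rose (Mrps14 at 0.72 and Mrps16 at 0.56) and Mrpl38 fell by 0.44, where 1.96% of all genes rose and 2.07% fell. In Ruxo_wash none of 78 passed the limma test, where 0.0229% of all genes did.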
